A study of Mus musculus with 30 samples.

Results

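Paclitaxel kills cells by binding to beta-tubulin in the microtubule wall and holding the polymer in place, so the proteins that seed, fold, modify, sever and cap microtubules are a natural set of genes to examine in lines grown under the drug. Described here are 38 such genes, taken by name from the 55401 gene identifiers of the deposited count table because of what their products do, with earlier results of these data known. They fall into 8 roles: the gamma-tubulin complex, the centriolar tubulins and their partners, the tubulin folding cofactors, the tubulin ligases, tubulin acetylation, destabilizing and severing, lattice and plus-end binding, and tubulin-associated export. The genes of alpha- and beta-tubulin are not among them.

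The cells were one murine lymphoma cell line (Eµ-Myc; p19ARF -/-) that carries the Eµ-Myc transgene, which drives Myc from an immunoglobulin heavy chain enhancer in B cells, and that lacks p19ARF. Each of the 12 DMSO control and 17 paclitaxel-resistant lines had been kept in a well of its own through weekly cycles, in which a pulse of DMSO or of paclitaxel dosed to kill most of the cells was followed by recovery without drug, and the untreated line was the source of 1 library labelled Parental. RNA was counted as 3′-end tags, 1 library per line, and the libraries were compared as CPM, a gene's counts scaled to a library of common size, after TMM normalization, which sets that scale so that most genes match. All lines share the transgene and the loss of p19ARF, they descend from 1 line, and p-values measure the spread between separately kept lines.

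Library totals were 1053948 to 6739131 counts (median 4052241.5) for DMSO control, 480919 to 6682169 (median 3263532) for paclitaxel-resistant and 1851837 for Parental, and the smallest was the library labelled Pac C1. Cdkn2a, the locus of p19ARF, had 0 counts in every library and Myc had 376 to 7676. All 10 B lymphocyte markers were detected well enough to test and 0 of them passed an adjusted p of 0.01 with edgeR, where 2.20% of all genes tested did. Of these markers 3 had an unadjusted p under 0.05, where 25.1% of all genes tested did. In paclitaxel-resistant lines 2 had a higher and 8 a lower estimate (median log2 fold change -0.26), where 56.6% of all genes tested were higher. The lowest was Ms4a1, with medians of 142 and 12.5 CPM (log2 fold change -1.84, adjusted p = 0.128), and the lowest p belonged to Cd79b (-0.64, adjusted p = 0.0132). They had summed levels of 6464 to 10523 CPM in DMSO control and 4505 to 11751 CPM in paclitaxel-resistant libraries. T lymphocyte markers summed to 0.587 to 10.1 CPM against 0 to 19.5, with Trbc2 and Cd3e at 0, and myeloid markers to 6.82 to 37.3 against 10.1 to 57.8, with S100a8, S100a9 and Adgre1 at 0. From these lists Cd3d (medians of 2.15 and 2.00 CPM), Cd68 (6.35 and 5.80 CPM) and Itgam (10.3 and 11.8 CPM) were tested. Their log2 fold changes with edgeR were 0.18, 0.47 and 0.45 (adjusted p = 0.841, 0.409 and 0.502). Erythroid markers summed to 7.00 to 72.5 against 4.46 to 251, with Hbb-bt tested (medians of 28.9 and 38.9 CPM, log2 fold change 0.77, adjusted p = 0.358) and Hba-a2 at 0, and fibroblast markers to 0 to 0.411 against 0 to 0.524, with Col3a1, Dcn and Lum at 0. In bulk RNA, fewer cells of a kind and less RNA per cell cannot be told apart.

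The names of the libraries from DMSO 12 on are in doubt, because they may be displaced by 1 column of the table, so each is called the library labelled by its name. A value given for such a line may then belong to its neighbour in the table, and the library labelled Parental may be another line. Such a displacement would change the treatment only of the libraries labelled DMSO 12, Pac H9 and Parental, of which the first pair entered the fit. On an axis over all genes tested that ran from 0 at the mean of the DMSO control libraries to 1 at the mean of the paclitaxel-resistant ones, with each library left out of its own group's mean, DMSO 1 to DMSO 10 lay between -0.11 and 0.19. The library labelled DMSO 12 lay at 0.74, DMSO 11 at 0.66, Pac H9 at 0.32, Pac C1 at 0.39 and Parental at 0.02, and the other paclitaxel-resistant libraries lay between 0.60 and 1.33. Results are given by the deposited labels and, where a sign or call or a printed count changed by much, without the libraries labelled DMSO 12 and Pac H9.

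New microtubules grow from a ring of gamma-tubulin held by the Tubgcp proteins, and centrioles need the rarer delta- and epsilon-tubulin. Newly made tubulin passes through the cofactors Tbca to Tbce, which assemble the alpha-beta dimer. Once polymerised, tubulin is tagged by ligases on its tail and by acetylation inside the lumen, and plus-end proteins, depolymerases and severing enzymes set how long the polymer lasts.

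Of the 38 genes, 35 passed the filter on low counts and were tested with edgeR's quasi-likelihood test between the 17 paclitaxel-resistant and 12 DMSO control libraries. Ttl, Atat1 and Mapre3 did not pass it. None of the 35 had an adjusted p under 0.01, where 2.20% of the 9445 genes tested did (0.995% higher and 1.21% lower in paclitaxel-resistant lines), and none had one under 0.05, where 7.56% did. At an unadjusted p under 0.05 there were 5 members, Tube1, Tubd1, Kif2a, Tubg1 and Clip1, all with higher estimates in paclitaxel-resistant lines. They were 14.3% of the members tested, where 25.1% of all genes tested had such a p. DESeq2 and edgeR's likelihood ratio test also gave 0 members with an adjusted p under 0.01, where they gave 5.20% and 4.74% of all genes tested. The count stayed at 0 without the libraries labelled DMSO 12 and Pac H9, where 3.36% of the genes tested were called, without those labelled Pac C3 and DMSO 11, where 3.57% were, and with library totals in place of TMM, where 2.95% were.

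At the looser adjusted p of 0.05, alternatives gave between 0 and 3 members. DESeq2 gave Tube1, where it gave 11.2% of all genes tested, and so did the likelihood ratio test, where it gave 10.5%. Without the libraries labelled DMSO 12 and Pac H9 the 1 member was again Tube1 (9.41% of all genes tested), and without those labelled Pac C3 and DMSO 11 it was Kif2a (12.5%). For Kif2a those were the lowest paclitaxel-resistant library and the highest control. Library totals in place of TMM gave Tube1, Tubd1 and Tubg1 (10.4%).

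Estimates were small and more often above 0 than below. The log2 fold change was above 0 in 24 members and below 0 in 11, so 68.6% were higher, where 56.6% of all genes tested were higher. Its median over the members was 0.14, where that over all genes tested was 0.07, and the members ran from -1.03 (Ttll9) to 0.83 (Tbcel). With library totals in place of TMM the median over all genes tested was 0.19, and 6 members near 0 changed sign to give 30 of 35 higher, namely Tedc1, Tbca, Tbcb, Spast, Mapre1 and Dctn1. Without the libraries labelled DMSO 12 and Pac H9 the sign changed for Tbca (0.01), Tbcb (0.02), Ttll5 (-0.02) and Map4 (-0.07). Other signs and the counts of signs by role are those under TMM with all libraries. The whole 95% interval of the fold change lay within 1.5-fold either way for 13 members (37.1%, against 30.5% of all genes tested) and within 2-fold for 28 (80.0%, against 70.3%).

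**Figure D1:**
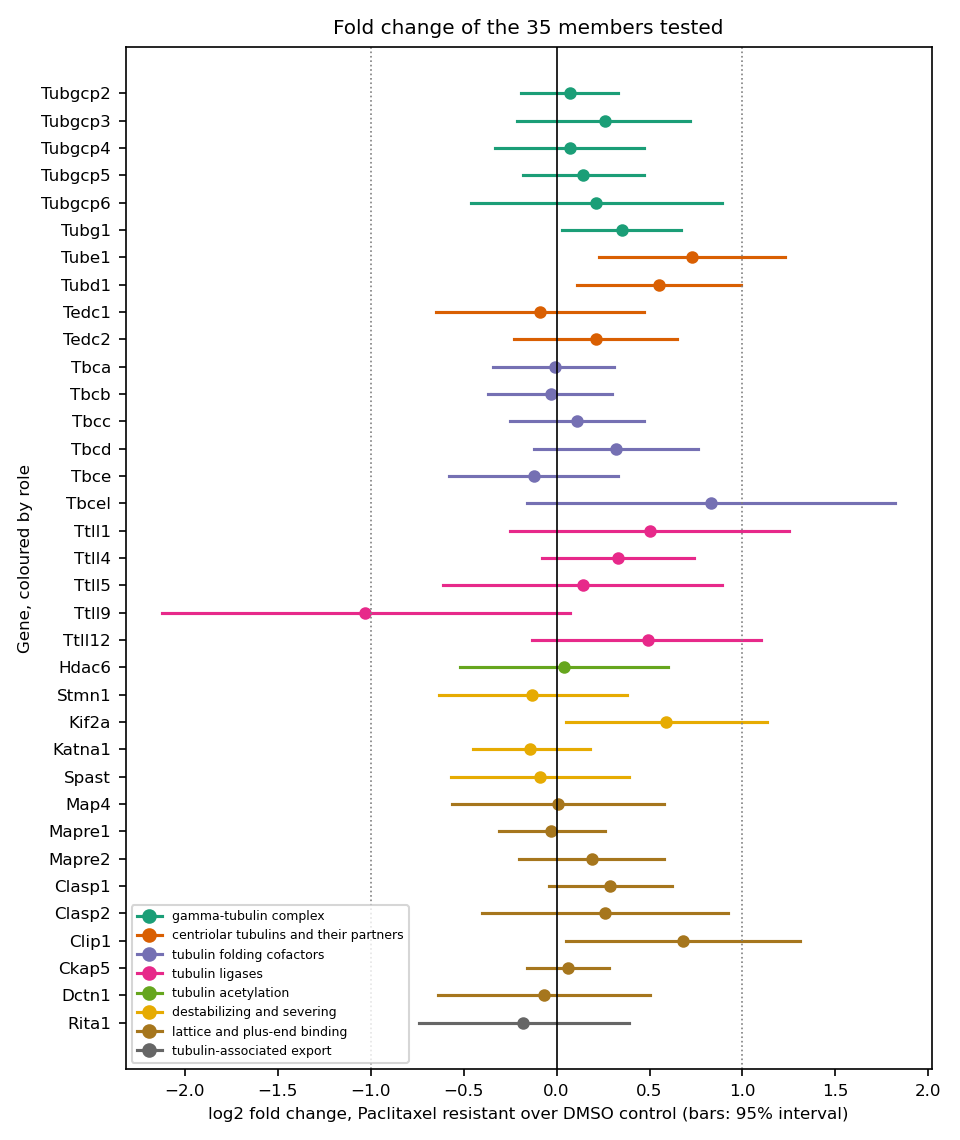
The log2 fold change of each of the 35 members tested, paclitaxel-resistant over DMSO control, with its 95% interval, in the order and colour of the 8 roles; dotted lines mark a 2-fold change. The intervals of Tube1, Tubd1, Tubg1, Kif2a and Clip1 lie above 0, and those of Tbcel and Ttll9 are the widest.

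Among the centriolar tubulins and their partners, 3 of 4 members had a higher estimate, with a median log2 fold change of 0.38. Tube1 encodes epsilon-tubulin, which with delta-tubulin builds the triplet microtubules of the centriole (chromosome 10, 39133976 to 39152542, plus strand, GRCm38). Its level was 4.19, 8.10 and 16.7 CPM (lowest, median and highest) in DMSO control libraries and 6.66, 13.1 and 31.4 CPM in paclitaxel-resistant libraries. The groups overlapped, with 13 of 17 paclitaxel-resistant libraries above the DMSO control median and 5 above its highest value, which was that of the library labelled DMSO 12. The highest were the libraries labelled Pac H8 (31.4 CPM) and Pac C3 (26.6 CPM). The fold change was 1.66, a log2 fold change of 0.73 (SE 0.25, 95% interval 0.23 to 1.23, p = 0.00579, adjusted p = 0.0646). Without the libraries labelled DMSO 12 and Pac H9 the log2 fold change was 0.87 (adjusted p = 0.0242), and 11 of 16 paclitaxel-resistant libraries lay above the highest remaining DMSO control value of 10.3 CPM. The log2 fold change was 0.52 (adjusted p = 0.123) with log10 total counts as a covariate. It was 0.60 (adjusted p = 0.103) without the libraries labelled Pac C3 and DMSO 11. Of the members, the lowest p belonged to Tube1.

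Tubd1 encodes delta-tubulin (chromosome 11, 86544991 to 86567360, plus strand). Its level was 8.99, 12.5 and 22.8 CPM in DMSO control and 6.80, 16.7 and 44.5 CPM in paclitaxel-resistant libraries, the highest being the libraries labelled Pac C3 (44.5 CPM) and Pac D7 (35.1 CPM). Of the 17 paclitaxel-resistant libraries 15 lay above the DMSO control median, though only 4 lay above its range. On the log2 scale the change was 0.55 (SE 0.22, 95% interval 0.11 to 0.99, adjusted p = 0.111). Tedc1 and Tedc2 encode the partners that hold delta- and epsilon-tubulin in one complex. Tedc2 was at 2.42, 5.31 and 9.38 CPM in DMSO control and 4.23, 5.95 and 9.61 CPM in paclitaxel-resistant libraries (log2 fold change 0.21, SE 0.22, adjusted p = 0.570), and the ranges lay almost on each other. The log2 fold change of Tedc1 was -0.09 (95% interval -0.65 to 0.47, adjusted p = 0.871), and the library labelled Pac C3, high for both tubulins, had 0 counts of it, where 3 counts would be 2.57 CPM.

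The promoters of both centriolar tubulins are shown with those of 2 other members to place them beside a site that bears on an Eµ-Myc line. CACGTG is the canonical E-box bound by Myc with Max, and it reads the same on both strands. Windows of 300 bases, 250 before and 50 after the start that RefSeq annotates on GRCm38.p6, were found for 31 of the 38 members, and 2 of these (6.45%) held the motif, where 2187 of 27025 genes (8.09%) did. The 2 were Tbcel, with 2 matches, and Mapre1, with 1. Capitals mark the motif, the windows are given 5′ to 3′ on the gene's strand, and a match is a string of letters, not a site shown to be bound. RefSeq starts can differ from the gene spans given here, and the window of Tbcel lies inside its span. The window of Tube1 is chr10:39133773-39134072 (plus), that of Tubd1 chr11:86544741-86545040 (plus), that of Tbcel chr9:42472189-42472488 (minus) and that of Mapre1 chr2:153741037-153741336 (plus).
Tube1: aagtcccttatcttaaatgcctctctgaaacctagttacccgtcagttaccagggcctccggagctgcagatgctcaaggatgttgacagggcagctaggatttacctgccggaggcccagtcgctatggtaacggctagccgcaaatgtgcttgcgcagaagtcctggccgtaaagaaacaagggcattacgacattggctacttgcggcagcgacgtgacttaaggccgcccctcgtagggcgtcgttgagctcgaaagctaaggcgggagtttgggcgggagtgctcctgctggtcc
Tubd1: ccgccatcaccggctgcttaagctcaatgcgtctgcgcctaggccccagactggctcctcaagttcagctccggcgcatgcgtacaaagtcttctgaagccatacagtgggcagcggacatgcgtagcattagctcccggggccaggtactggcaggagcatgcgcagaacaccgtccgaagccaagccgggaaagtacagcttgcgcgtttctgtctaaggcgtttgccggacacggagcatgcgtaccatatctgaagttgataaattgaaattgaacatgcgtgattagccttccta
Tbcel: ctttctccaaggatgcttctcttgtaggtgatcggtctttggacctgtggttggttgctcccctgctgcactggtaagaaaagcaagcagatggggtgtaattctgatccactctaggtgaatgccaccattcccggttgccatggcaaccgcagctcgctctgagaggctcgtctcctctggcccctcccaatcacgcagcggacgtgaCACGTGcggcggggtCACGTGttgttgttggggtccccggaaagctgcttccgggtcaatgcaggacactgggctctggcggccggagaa
Mapre1: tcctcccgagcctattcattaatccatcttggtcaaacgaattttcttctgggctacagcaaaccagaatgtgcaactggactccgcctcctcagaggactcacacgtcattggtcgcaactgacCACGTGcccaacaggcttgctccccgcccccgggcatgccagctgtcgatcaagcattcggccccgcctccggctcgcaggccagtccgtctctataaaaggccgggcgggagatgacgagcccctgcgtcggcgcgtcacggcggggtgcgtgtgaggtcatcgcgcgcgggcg

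Myc itself had a log2 fold change of 0.47 (adjusted p = 0.0517). The members with the motif had log2 fold changes of 0.83 (Tbcel) and -0.03 (Mapre1), and neither passed the test.

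All 6 members of the gamma-tubulin complex had an estimate above 0, where 56.6% of all genes tested did, with a median log2 fold change of 0.18. The sign changed for Tubgcp4 without the libraries labelled Pac C3 and DMSO 11. It changed for Tubgcp2 when all libraries were thinned to the smallest total. Tubg1 encodes gamma-tubulin, the template on which a microtubule starts (chromosome 11, 101119938 to 101126419, plus strand). Its level was 76.1, 124 and 143 CPM in DMSO control and 49.3, 158 and 236 CPM in paclitaxel-resistant libraries. The paclitaxel-resistant lines lay on both sides of the DMSO control range, 9 above it and 1 below it. The highest was the library labelled Pac D10 (236 CPM) and the lowest the library labelled Pac F10 (49.3 CPM), while the lowest control was DMSO 11 (76.1 CPM). The estimate was a log2 fold change of 0.35 (SE 0.16, 95% interval 0.03 to 0.67, adjusted p = 0.165), a fold change of 1.27. Tubg2, a close paralogue, lies nearby on the same chromosome, and how reads shared by the pair were counted is not given in the sources used here.

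Tubgcp2 and Tubgcp3 form the small gamma-tubulin complex with Tubg1, and Tubgcp4, Tubgcp5 and Tubgcp6 complete the ring. Tubgcp3 was at 7.99, 14.5 and 26.5 CPM in DMSO control and at 2.57, 18.7 and 42.3 CPM in paclitaxel-resistant libraries, with the lowest in the library labelled Pac C3 and the highest in Pac G9 (log2 fold change 0.26, SE 0.23, adjusted p = 0.504). Tubgcp5 was at 14.4, 19.2 and 26.5 CPM against 10.3, 19.1 and 39.4 CPM, with the libraries labelled Pac C3 (39.4 CPM) and Pac C1 (37.6 CPM) above the control range (log2 fold change 0.14, SE 0.16, adjusted p = 0.601). Tubgcp2 had the narrowest interval of the Tubgcp genes, a log2 fold change of 0.07 between -0.19 and 0.33. Tubgcp4 and Tubgcp6 had log2 fold changes of 0.07 and 0.21 (adjusted p = 0.850 and 0.714). The 3′ end of each of these last genes overlaps a gene on the other strand, Trp53bp1 (387 counts over all libraries) and Selenoo (95 counts), and the strand setting of the counting is not given in the sources used here.

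**Figure D2:**
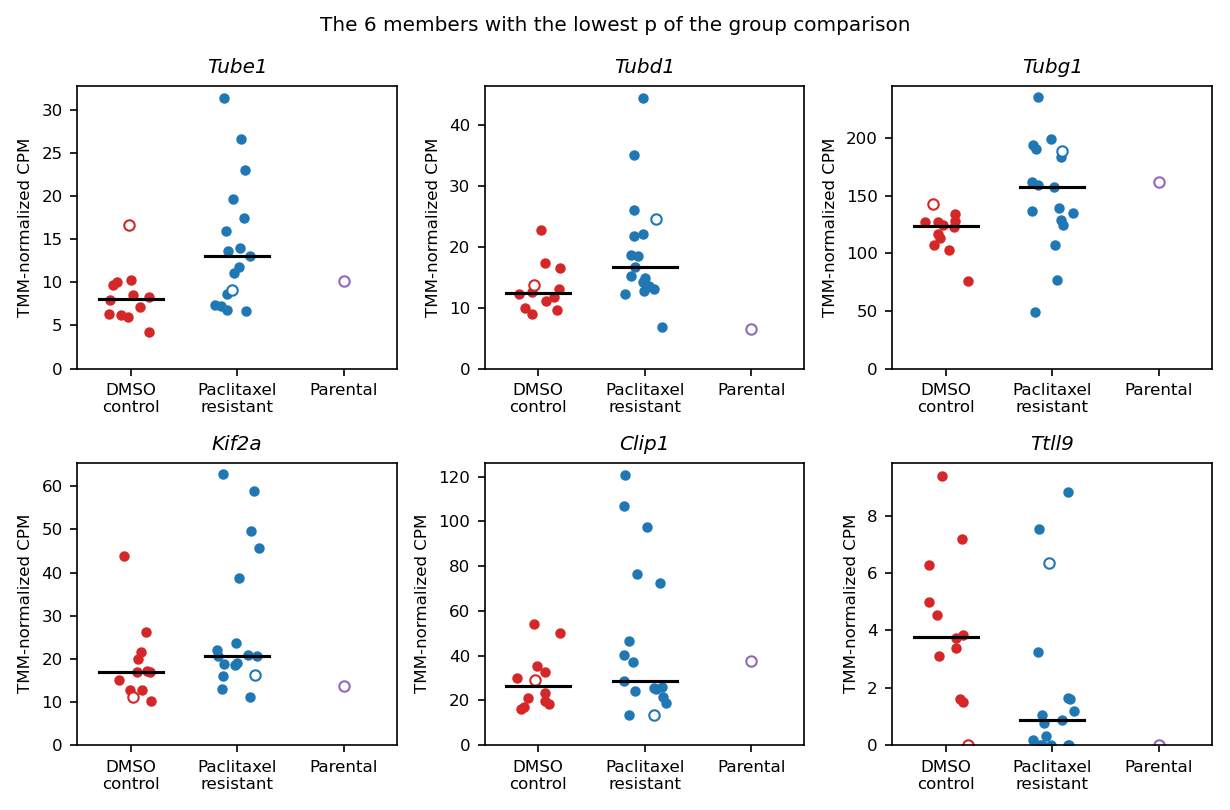
TMM-normalized CPM of the 6 members with the lowest p in the comparison, 1 point per library; bars are group medians and open points are the libraries labelled DMSO 12, Pac H9 and Parental. Of 17 paclitaxel-resistant points, 13 for Tube1, 15 for Tubd1 and 14 for Tubg1 lie above the DMSO control median, 4 for Kif2a and 5 for Clip1 lie above every control, and 14 for Ttll9 lie below the control median.

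For Kif2a and Clip1 most paclitaxel-resistant lines lay within the control range and a few lay above it, with 2 below it for Clip1 (1 without the libraries labelled DMSO 12 and Pac H9). Kif2a encodes a kinesin that takes tubulin off microtubule ends in place of walking along them (chromosome 13, 106958996 to 107022126, minus strand). Its level was 10.3, 16.9 and 43.9 CPM in DMSO control and 11.1, 20.7 and 62.9 CPM in paclitaxel-resistant libraries. The groups overlapped over most of their range, and the libraries labelled Pac A6 (62.9 CPM), Pac D4 (58.9 CPM), Pac F10 (49.6 CPM) and Pac C11 (45.6 CPM) stood above all controls. The highest control, DMSO 11 at 43.9 CPM, stood apart from the next at 26.1 CPM. With edgeR the log2 fold change was 0.59 (SE 0.26, 95% interval 0.05 to 1.13, adjusted p = 0.162). Without the libraries labelled Pac C3 and DMSO 11 it was 0.81 (adjusted p = 0.0269). For Kif2a the library labelled Pac C3 was the lowest paclitaxel-resistant one and DMSO 11 the highest control. Leaving out that pair raises the estimate by itself, so the lower p is no separate check. Dimt1, whose gene overlaps the 3′ end of Kif2a on the other strand, had a log2 fold change of 0.12 (adjusted p = 0.643).

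Clip1 encodes a linker that tracks growing plus ends (chromosome 5, 123577795 to 123684618, minus strand). Its level was 15.9, 26.3 and 54.1 CPM in DMSO control and 13.6, 28.8 and 121 CPM in paclitaxel-resistant libraries. The medians were close, and 5 libraries stood above the control range, those labelled Pac C1 (121 CPM), Pac A6 (107 CPM), Pac C11 (97.3 CPM), Pac F10 (76.4 CPM) and Pac D4 (72.5 CPM). Its log2 fold change was 0.68 (SE 0.31, 95% interval 0.05 to 1.31, adjusted p = 0.169), a fold change of 1.6.

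Some of the lines with the highest Kif2a came up again in other members, picked after the values were seen. The libraries labelled Pac A6, Pac C11, Pac D4 and Pac F10 lay outside the DMSO control range in 45.7, 42.9, 37.1 and 45.7% of the members tested. Over all genes tested the shares were 35.8, 42.0, 39.2 and 48.2%. Tbcel encodes a cofactor-E-like protein that promotes the turnover of tubulin (chromosome 9, 42412316 to 42507809, minus strand). It was at 0, 5.62 and 22.3 CPM in DMSO control and at 0, 6.03 and 39.3 CPM in paclitaxel-resistant libraries, and its highest levels were in the libraries labelled Pac F10 (39.3 CPM), Pac C11 (25.2 CPM) and Pac D4 (23 CPM). Among the controls DMSO 11 had 22.3 CPM and the next 8.53 CPM, and the bulk of both groups lay in one range. The fitted log2 fold change was 0.83 (SE 0.49, 95% interval -0.16 to 1.82, adjusted p = 0.284), and it was 1.29 (adjusted p = 0.0539) without the libraries labelled Pac C3 and DMSO 11 and 1.26 (adjusted p = 0.0524) with log10 total counts as a covariate. DMSO 11 was the highest control for Tbcel and the library labelled Pac C3 was at 0, so leaving them out raises the estimate by itself. The libraries labelled Pac F10, Pac C11 and Pac D4 were also among the lowest for Mapre1 and Tbca, described further on. The library labelled Pac D4 had 11.86% of its counts on mitochondrial genes, Pac C11 10.1% and DMSO 11 12.42%, while Pac A6 had 2.49% and Pac F10 2.29%, and the other 25 libraries had 1.34 to 7.39%. Genes with at least 1 count numbered 17333 in the library labelled Pac F10, the most of all, and 14171 in Pac A6. The part of mitochondrial share or of gene detection in these levels was not tested.

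**Figure D3:**
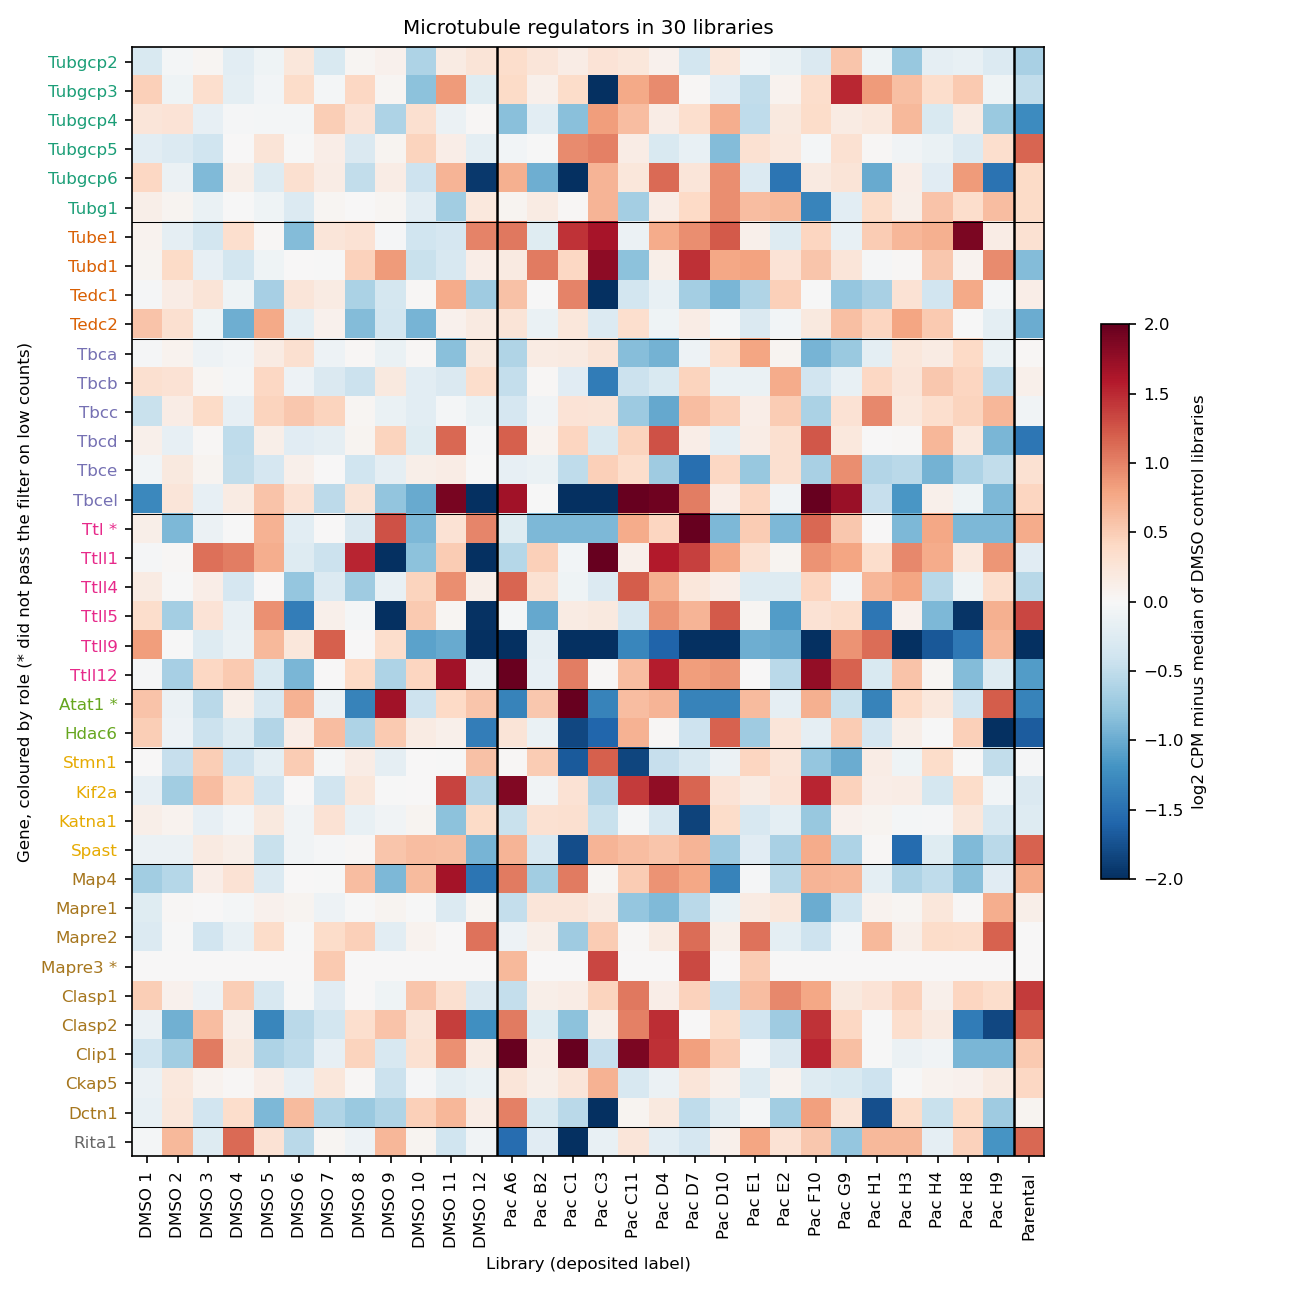
Log2 CPM of each member in each of the 30 libraries relative to the DMSO control median of that gene (red above, blue below, colour range cut at 2 either way); vertical lines part DMSO control, paclitaxel-resistant and Parental, and an asterisk marks the 3 genes that did not pass the filter. DMSO 1 to DMSO 10 are pale across most rows, and the columns of Pac A6, Pac C11, Pac D4 and Pac F10 are red at Kif2a and Clip1 and blue at Mapre1.

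Estimates of the tubulin ligases differed in sign, 4 of the 5 tested higher and 1 lower, or 3 higher and 2 lower without the libraries labelled DMSO 12 and Pac H9. Ttll9, which encodes a member of the tubulin tyrosine ligase-like family that adds glutamate chains to tubulin tails, had the lowest estimate (chromosome 2, 152962485 to 153008482, plus strand). Its level was 0, 3.78 and 9.38 CPM in DMSO control and 0, 0.861 and 8.82 CPM in paclitaxel-resistant libraries. The only control at 0 was the library labelled DMSO 12, and 5 paclitaxel-resistant libraries were at 0. In all, 14 of the 17 lay below the control median, and the libraries labelled Pac H1 (8.82 CPM), Pac G9 (7.54 CPM) and Pac H9 (6.34 CPM) lay above it. On the log2 scale the change was -1.03 (SE 0.54, 95% interval -2.12 to 0.07, adjusted p = 0.232). Without the libraries labelled DMSO 12 and Pac H9 it was -1.28 (adjusted p = 0.119), and 11 of 16 paclitaxel-resistant libraries then lay below the lowest control value of 1.5 CPM. A count of 0 allows up to 3 counts, which is 6.28 CPM in the smallest library, labelled Pac C1, 3.09 CPM in the library labelled Pac D10 and 2.57 CPM in the library labelled Pac C3. These lie within the control range, so at these depths a 0 there cannot be told from a control level. In the libraries labelled Pac D7 and Pac H3, also at 0, 3 counts are 0.850 and 1.31 CPM.

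Ttll4, a glutamylase that starts chains, was at 10.1, 17.8 and 34.3 CPM in DMSO control and at 11.9, 20.9 and 41.8 CPM in paclitaxel-resistant libraries (log2 fold change 0.33, SE 0.20, adjusted p = 0.311). Ttll12, a family member whose ligase activity is uncertain, was at 5.59, 11.0 and 36.3 CPM against 5.77, 16.6 and 44.8 CPM (log2 fold change 0.49, SE 0.30, adjusted p = 0.318), with the library labelled Pac A6 highest and DMSO 11 as the highest control of both ligases. Their groups overlapped over nearly the whole range. Ttll1, a subunit of a glutamylase complex, and Ttll5, a glutamylase, had log2 fold changes of 0.50 and 0.14 (adjusted p = 0.406 and 0.841). Ttl, the enzyme that puts the last tyrosine back on alpha-tubulin, was at 0 to 1.99 CPM in every library but the one labelled Pac D7, which had 9.06 CPM from 32 counts.

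Among the members, Hdac6 and Atat1 act on tubulin acetylation. Hdac6, which takes the acetyl mark off alpha-tubulin, was at 3.03, 8.86 and 13.8 CPM in DMSO control and at 0.906, 8.81 and 20.7 CPM in paclitaxel-resistant libraries (log2 fold change 0.04, SE 0.28, 95% interval -0.52 to 0.60, adjusted p = 0.943). The medians were nearly equal and the groups overlapped. Atat1, which puts the mark on, was low throughout, with 8.36 CPM in the library labelled Pac C1 and at most 3.97 CPM in any other. The value in Pac C1 is near the 6.28 CPM that 3 counts make there.

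Of the folding cofactors 3 were higher and 3 lower, with a median log2 fold change of 0.05, and 5 were higher and 1 lower without the libraries labelled DMSO 12 and Pac H9. Tbca, which holds beta-tubulin on its way into the dimer, was at 213, 383 and 477 CPM in DMSO control and at 199, 396 and 665 CPM in paclitaxel-resistant libraries. The estimate was a log2 fold change of -0.01 (SE 0.16, 95% interval -0.34 to 0.31, adjusted p = 0.963), and its sign changed with the scaling. Tbcc, which triggers release of the finished dimer, was at 21.5, 29.4 and 42.9 CPM against 14.2, 35.5 and 57.8 CPM (log2 fold change 0.11, SE 0.18, adjusted p = 0.730). Both genes overlapped between the groups, each with 3 paclitaxel-resistant libraries above and 3 below the control range.

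Tbcd, which binds beta-tubulin in the dimer-making complex, was at 7.43, 10.8 and 24.5 CPM in DMSO control and at 5.43, 12.5 and 26.9 CPM in paclitaxel-resistant libraries (log2 fold change 0.32, SE 0.22, adjusted p = 0.357). The highest were the libraries labelled Pac D4 (26.9 CPM), Pac F10 (26.2 CPM) and Pac A6 (25.5 CPM), with DMSO 11 (24.5 CPM) close behind. Tbcb, which binds alpha-tubulin, had a log2 fold change of -0.03 (adjusted p = 0.921). Tbce, the partner of alpha-tubulin in the same complex, had one of -0.12 (adjusted p = 0.758), though only 3 of its 17 paclitaxel-resistant libraries lay inside the control range. The 3′ ends of Tbcd and Tbce overlap B3gntl1 and B3galnt2 on the other strand, whose log2 fold changes were 0.69 (adjusted p = 0.112) and -0.45 (adjusted p = 0.111).

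Of the destabilizing and severing proteins, Kif2a alone had a higher estimate. Katna1, the catalytic subunit of the severing enzyme katanin, was at 75.9, 134 and 175 CPM in DMSO control and at 36.8, 130.1 and 172 CPM in paclitaxel-resistant libraries (log2 fold change -0.14, SE 0.15, adjusted p = 0.601). The library labelled Pac D7, at 36.8 CPM, lay below the control range, and without the libraries labelled DMSO 12 and Pac H9 there were 3 libraries above it as well. Stmn1, stathmin, which sequesters free tubulin dimers, was at 5.62, 7.91 and 12.1 CPM against 1.80, 7.43 and 18.8 CPM (log2 fold change -0.13, SE 0.25, adjusted p = 0.781). Spast, the severing enzyme spastin, had a log2 fold change of -0.09 (95% interval -0.57 to 0.39, adjusted p = 0.843).

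Among the lattice and plus-end binding proteins, 6 of the 8 tested had a higher estimate (5 without the libraries labelled DMSO 12 and Pac H9), with a median log2 fold change of 0.13. Clasp1, which rescues shrinking microtubules, was at 13.4, 16.9 and 25 CPM in DMSO control and at 11.9, 21.7 and 35.8 CPM in paclitaxel-resistant libraries. There were 15 of 17 paclitaxel-resistant libraries above the control median, 4 above the range and 2 below it (log2 fold change 0.29, SE 0.16, 95% interval -0.04 to 0.62, adjusted p = 0.260). Mapre2, an end-binding protein, was at 15.8, 20.8 and 45.0 CPM against 12.5, 22.7 and 48.0 CPM, and the highest of each group were the libraries labelled DMSO 12 and Pac H9 (log2 fold change 0.19, SE 0.19, adjusted p = 0.560). Mapre3, its relative, had 7 counts in all.

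Ckap5, the polymerase that adds tubulin at plus ends, had the narrowest interval of all members tested, a log2 fold change of 0.06 between -0.16 and 0.28 (adjusted p = 0.746). Map4, which coats and steadies the lattice, had a log2 fold change of 0.01 (95% interval -0.56 to 0.58, adjusted p = 0.986). Its highest level was in DMSO 11 (61.8 CPM), above every paclitaxel-resistant library. Clasp2, the paralogue of Clasp1, and Dctn1, the dynactin subunit that grips microtubules, had log2 fold changes of 0.26 and -0.07 (adjusted p = 0.641 and 0.897). Rita1, a tubulin-binding protein that carries the Notch effector RBPJ out of the nucleus, was at 3.14, 4.79 and 11.1 CPM in DMSO control and at 0, 4.28 and 8.69 CPM in paclitaxel-resistant libraries (log2 fold change -0.18, SE 0.28, adjusted p = 0.723), and the groups overlapped.

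Each paclitaxel-resistant line had evolved in its own well, so the spread among lines was compared as well as the level. The spread was taken as the mean absolute deviation of log2 CPM from the group median and tested with limma across all genes. It includes counting error, which was not separated from differences between lines. The median library total was lower for paclitaxel-resistant lines (3263532 counts) than for DMSO control (4052241.5). It was larger among paclitaxel-resistant lines for 32 of 35 members, where it was so for 88.7% of all genes tested, and its median over the members was 0.33 in DMSO control and 0.50 in paclitaxel-resistant lines (0.34 and 0.51 over all genes tested). None of the members had an adjusted p under 0.01, and 0% of all genes tested did. At an unadjusted p under 0.05 there were 4 members, Mapre1, Tbce, Tbca and Tubg1, where 14.3% of all genes had such a p. Without the libraries labelled DMSO 12 and Pac H9 there were 6 members, where 17.0% of all genes had such a p. A p that misses the threshold does not show that spreads were equal.

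**Figure D4:**
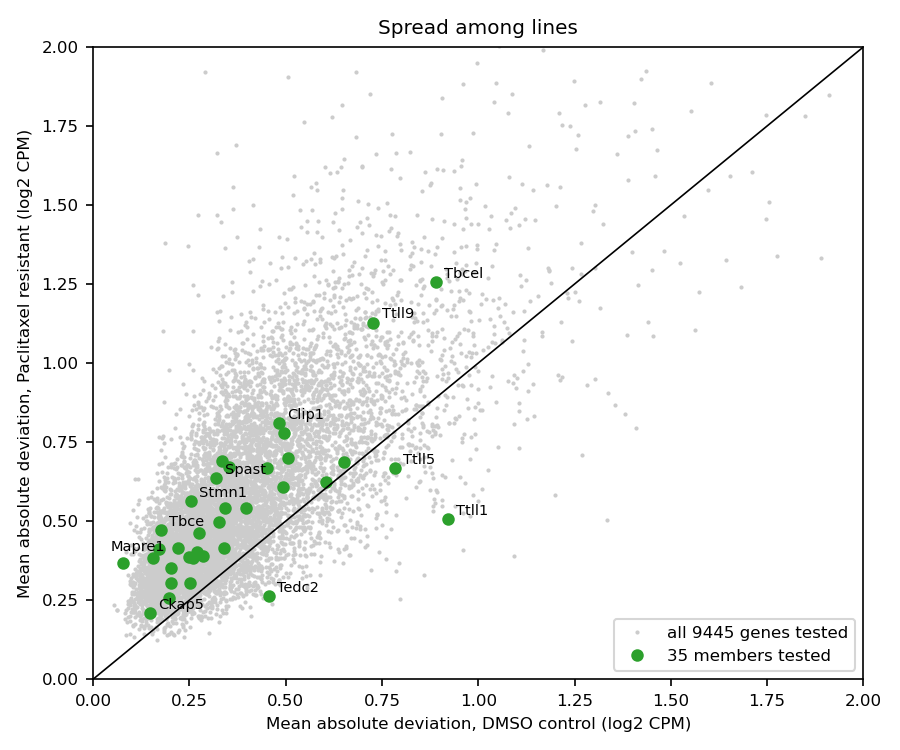
Mean absolute deviation of log2 CPM from the group median in DMSO control (x axis) and paclitaxel-resistant lines (y axis), 1 point per gene, with the 35 members in green and the line of equal spread; 15 genes lie outside the axes drawn. Members lie among the other genes, 32 of them above the line, and Ttll1, Ttll5 and Tedc2 below it.

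Mapre1 had the lowest p for spread. It encodes the end-binding protein that recruits most other proteins to growing plus ends (chromosome 2, 153741274 to 153773310, plus strand). Its level was 198, 240.0 and 254 CPM in DMSO control and 120.4, 247 and 397 CPM in paclitaxel-resistant libraries. The lines left the narrow control range on both sides, 7 above it and 6 below it. The highest was the library labelled Pac H9 (397 CPM), and the next were at 284 CPM. The lowest were those labelled Pac F10 (120.4 CPM), Pac D4 (129.5 CPM), Pac C11 (139.9 CPM), Pac D7 (164 CPM) and Pac A6 (172 CPM). The mean absolute deviation was 0.08 in DMSO control and 0.37 in paclitaxel-resistant lines (p = 0.00241, adjusted p = 0.347, limma; p = 0.00483, adjusted p = 0.290 without the libraries labelled DMSO 12 and Pac H9), while the log2 fold change of the level was -0.03 (SE 0.14, 95% interval -0.31 to 0.26, adjusted p = 0.922).

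Tbce was at 6.30, 9.12 and 10.5 CPM in DMSO control and at 2.83, 6.27 and 17.8 CPM in paclitaxel-resistant libraries. These levels rested on 8 to 70 counts in DMSO control and 3 to 111 counts in paclitaxel-resistant libraries. Of these libraries 5 lay above and 9 below the control range, from Pac G9 (17.8 CPM) down to Pac D7 (2.83 CPM). The mean absolute deviation was 0.18 and 0.47 (p = 0.0230, adjusted p = 0.347). For Tbca it was 0.17 and 0.41 (p = 0.0329, adjusted p = 0.347), with the library labelled Pac E1 at 665 CPM and those labelled Pac D4 and Pac F10 at 199 and 202 CPM. For Stmn1 it was 0.25 and 0.56 (limma p = 0.0541, adjusted p = 0.347), and 6 lines lay below the control range, the lowest labelled Pac C11 (1.80 CPM). For Spast it was 0.32 and 0.64 (limma p = 0.0612, adjusted p = 0.350), with 5 lines above and 2 below the control range, or 5 above and 6 below without the libraries labelled DMSO 12 and Pac H9.

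**Figure D5:**
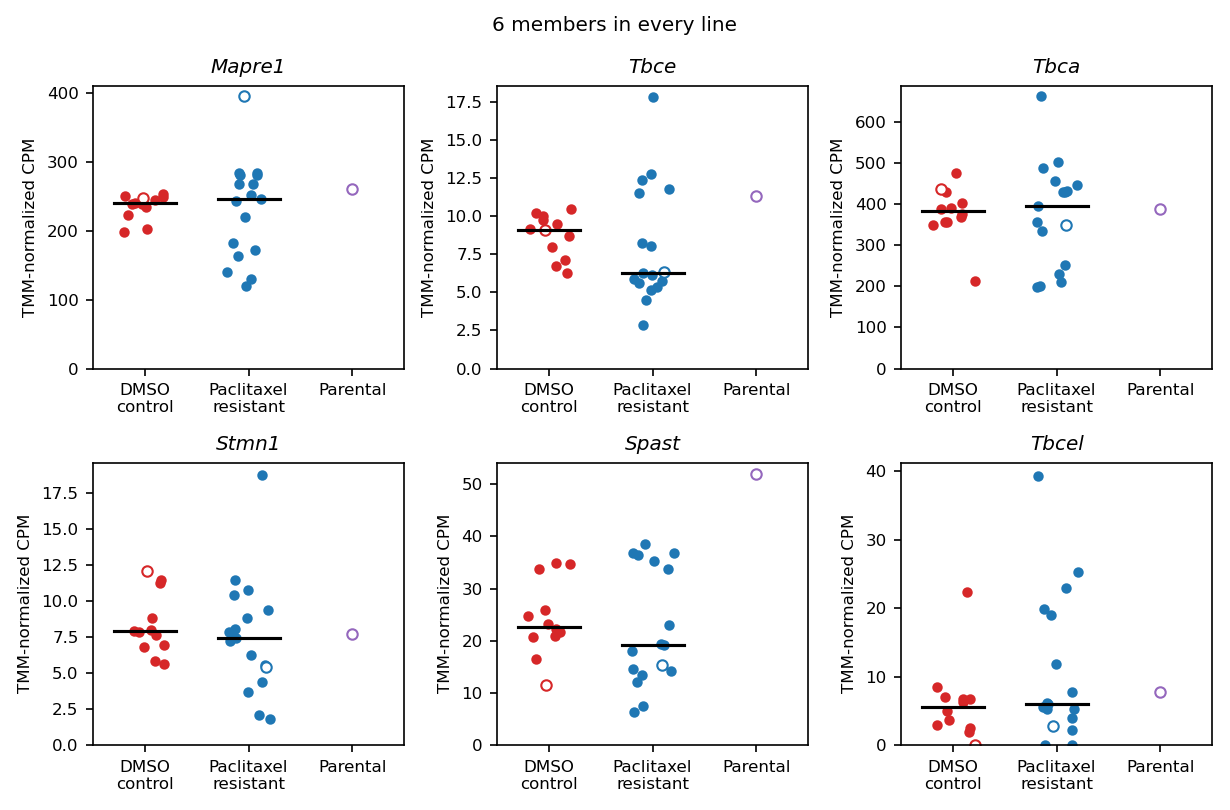
TMM-normalized CPM of 6 members in every library, 1 point per line, with group medians as bars and open points for the libraries labelled DMSO 12, Pac H9 and Parental; the genes were chosen after their values were seen. Paclitaxel-resistant lines lie on both sides of the DMSO control range of Mapre1 (7 above, 6 below), Tbce (5 above, 9 below) and Spast (5 above, 2 below, or 6 below without the libraries labelled DMSO 12 and Pac H9).

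Seen by line, departures from the controls were uneven. The library labelled Pac C3 lay outside the DMSO control range in 18 of 35 members (51.4%, against 36.5% of all genes tested), above it for Tube1, Tubd1 and Tubg1 and below it for Tedc1, Tubgcp3 and Dctn1. Its levels of Tedc1, Tubgcp3 and Dctn1 rested on 0, 3 and 1 counts, where 3 counts are 2.57 CPM. The library labelled Pac F10 lay outside in 16 members (45.7%, against 48.2%), and the one labelled Pac B2 in 2 (5.71%, against 17.3%), Tubd1 and Mapre1. Against the controls without DMSO 12, the library labelled Pac B2 lay outside in 7 members (20%, against 22.7%) and Pac C3 in 21 (60.0%, against 41.5%). Of the controls, DMSO 11 lay outside the range of the other controls in 15 members (42.9%, against 48.2%), above for Kif2a, Map4 and Tbcel among others and below for Tubg1, Tbca, Katna1 and Mapre1.

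Other genes of the same processes were counted in the same way. Of 97 listed genes for gamma-tubulin recruitment, chaperones, tail modification, severing and lattice binding, 63 were tested, 0 had an adjusted p under 0.01 (2.20% of all genes tested), and 12 had an unadjusted p under 0.05 (19%, against 25.1% of all genes tested). Their estimates were higher in 34 (54.0%, against 56.6%) and lower in 29, with a median log2 fold change of 0.03. The median was -0.18 over 15 genes of gamma-tubulin recruitment and augmin, 0.01 over 16 folding chaperones, 0.02 over 7 genes of tail modification, -0.03 over 7 other destabilizing and severing genes and 0.20 over 18 other lattice and end binding genes. The lowest adjusted p belonged to Pfdn6, a subunit of the prefoldin chaperone that hands nascent tubulin on for folding, with medians of 128 CPM in DMSO control and 173 CPM in paclitaxel-resistant libraries (log2 fold change 0.39, SE 0.12, adjusted p = 0.0466).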

How the data were processed

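Tags from the 3′ ends of transcripts were sequenced from 30 lines, in 2 subpools of 15. The authors aligned reads with STAR 2.5.1b to GRCm38 (mm10, per the labels) and deposited raw counts per gene, without normalization. The subpool of each line, the strand setting and whether molecular identifiers were collapsed are not given in the sources used here, so the subpool was not modelled, and intervals cover counting error only where 1 library is described. No column of values was left unused (0).

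Treatment groups came from the labels. Symbols were found for 55141 identifiers. The 9445 genes that passed filterByExpr were fitted with edgeR 4.0.16 in R 4.3.3 (TMM, quasi-likelihood F test, Benjamini-Hochberg adjustment over all genes tested, threshold 0.01), 29 libraries, Parental outside the fit. Spread was tested with limma 3.58.1 on absolute deviations from group medians of log2 CPM (prior count 2). DESeq2 1.42.0, the likelihood ratio test, other scalings, filters and library sets were alternatives. The code was tested on simulated data. No library was counted as a copy of another. The most alike pair within a treatment label (DMSO 6 with DMSO 9) had a chi-square per gene of 5.63. Pairs across labels and pairs with Parental were not compared. Tables were joined in Python 3.11.15 with pandas 2.3.3, and promoters are from RefSeq on GRCm38.p6.

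The members and gene lists were chosen with earlier results of these data known. Values are given in full for the 3 members with the lowest p and the member with the highest mean CPM in each role. By rule, libraries were to be named where 1 lies beyond 2 times the next, which held for Ttl and Atat1. Other libraries were named after their values were seen. Values by library of other members (Tbce, Spast, Map4) and of Pfdn6 were chosen after their values were seen.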

Additional observations from a re-analysis of the deposited data

Results flagged for a closer look

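The library labelled Parental was outside the comparison of groups, apart from the alternative that added it to the fit, and in it the counting interval of 4 members lay above the measured level of every DMSO control library (11.4% of those tested, against 3.25% of all genes tested). The intervals are exact 95% Poisson intervals of its counts and cover counting error only, and its label is among those in doubt. Spast, the severing enzyme spastin, was at 51.9 CPM (87 counts, interval 41.6 to 64.0), where the highest control, DMSO 10, was at 35 CPM (interval 27.2 to 44.2). Clasp1, which rescues shrinking microtubules, was at 45.3 CPM (76 counts, interval 35.7 to 56.7), where DMSO 10, the highest control, was at 25 CPM (interval 18.5 to 32.9). Tubgcp5, a subunit of the gamma-tubulin ring, was at 43.5 CPM (73 counts, interval 34.1 to 54.7), where the highest control was at 26.5 CPM (interval 19.8 to 34.6). Ckap5, the plus-end polymerase, was at 159 CPM (267 counts, interval 141 to 179.5), where the highest control, DMSO 7, was at 140.5 CPM (interval 129 to 152). Of the 4, Clasp1 alone had an interval that did not overlap that of the highest control.

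Over the members tested, 10 of 35 lay outside the range of the other 29 libraries in the library labelled Parental (28.6%), where 634 of all genes tested did (6.71%). Spast, Clasp1, Tubgcp5, Ttll5 (10.1 CPM) and Rita1 (11.3 CPM) lay above it. Tubgcp4 (2.98 CPM), Tubd1 (6.56 CPM), Tedc2 (2.39 CPM), Tbcd (3.58 CPM) and Ttll12 (4.77 CPM) lay below it. For 9 of the 10 the counting interval reached back into the range of the other libraries, and the exception was Spast. With 1 library there is no replicate check.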

How the results depend on the processing

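Under every alternative run, 0 members had an adjusted p under 0.01 for level or spread. At 0.05, where 0 members passed with all libraries, 1 passed with DESeq2 (Tube1), 1 with the likelihood ratio test (Tube1), 1 without the libraries labelled DMSO 12 and Pac H9 (Tube1), 1 without those labelled Pac C3 and DMSO 11 (Kif2a) and 3 with library totals in place of TMM (Tube1, Tubd1 and Tubg1). Library totals moved the median log2 fold change of all genes from 0.07 to 0.19 and that of the members from 0.14 to 0.25. Over the alternatives the adjusted p ran from 0.0242 to 0.123 for Tube1, 0.0269 to 0.229 for Kif2a and 0.119 to 0.286 for Ttll9.

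Of the 35 members tested, 23 kept the sign of their fold change under every alternative that tested them, and the 12 that did not had log2 fold changes of at most 0.14 in size with all libraries. Of the 22 tested members described in full by the rule on lowest p and highest level, 3 changed sign. Tbca (-0.01) became 0.07 with library totals, 0.01 without the libraries labelled DMSO 12 and Pac H9 and 0.08 with all libraries thinned to the smallest total, Mapre1 (-0.03) became 0.05 with library totals and 0.06 when thinned, and Katna1 (-0.14) became 0.01 when thinned. Estimates also moved by over 1.5 times without a change of sign. Without the libraries labelled Pac C3 and DMSO 11, Tbcel (0.83) became 1.29, Ttll12 (0.49) 0.76, Tbcd (0.32) 0.50 and Tubgcp3 (0.26) 0.40. With the covariate Tbcel became 1.26, and when thinned Tubgcp3 became 0.64, Clasp1 (0.29) 0.61 and Mapre2 (0.19) 0.31. Library totals gave 0.39 for Tubgcp3 and 0.33 for Tedc2 (0.21). None of these had an adjusted p under 0.05, estimates under 0.3 in both fits are left out, and the cause was not tested. Genes called among all tested were 208, and from 103 (thinned, 5175 genes of which 17 members tested) to 491 (DESeq2) over the alternatives. No paired analysis was possible because the groups share no replicate numbers. For low members such as Ttll9, depth limited what a 0 could show in the shallowest libraries, 3 counts being 6.28 CPM in the smallest.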
